A study of Mus musculus with 6 samples.

Results

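The enzymes that build fatty acids, the transcription factor that switches their genes on and the lipid droplet enzyme Pnpla3 were examined in mouse lung as a set of 10 genes, of 54532 in the deposited table. They are Pnpla3, Srebf1, Fasn, Acaca, Acly, Scd1, Scd2, Elovl6, Me1 and Thrsp. The set was chosen by name, as SREBP1 and its lipogenic targets, with the genotype fold changes of these libraries already known, so their differences between genotypes are given as a description, with no p-value, and counts of calls among them are no evidence. RNA was sequenced from perfused whole lungs of untreated C57BL/6J mice 2 months old, in 3 wild-type (WT) libraries and 3 libraries labelled ISM1-KO, from ISM1-/- mice that lack isthmin-1, a secreted lung protein. Both genotypes were on the same background and carried no other allele or treatment in the labels. The study bought its WT mice and made the ISM1-/- line in-house, so the source of the mice and the genotype cannot be told apart. The labels number the replicates without saying that each is a separate mouse, so every p-value below measures only the spread between these libraries.

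Fatty acid synthesis starts from citrate that leaves the mitochondria. ATP citrate lyase (Acly) cuts it to acetyl-CoA, acetyl-CoA carboxylase 1 (Acaca) makes malonyl-CoA, and fatty acid synthase (Fasn) joins these units to palmitate with NADPH that malic enzyme (Me1) helps to supply. Elovl6 lengthens palmitate and the stearoyl-CoA desaturases (Scd1, Scd2) place a double bond. SREBP1, the product of Srebf1, is cut from the endoplasmic reticulum membrane and activates these genes, Thrsp (Spot 14) is a nuclear and cytosolic protein of lipogenic tissues, and Pnpla3, an SREBP1 target, acts on acyl chains of lipid droplets. In lung, alveolar type 2 cells use the pathway to make the dipalmitoyl phospholipid of surfactant, and adipocytes use it to fill fat droplets.

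Depth was close between libraries, at 37606133 to 42345042 counts. The targeted gene, Ism1, was still counted in the libraries labelled ISM1-/-, with 2784, 2508 and 2953 counts against 3098, 3215 and 2975 in WT. Its mean was 69.1 ± 5.72 CPM (counts scaled to library size, SD, n = 3) against 78.9 ± 2.88 in WT, or 87.6% of it, and the difference did not pass edgeR's quasi-likelihood test (adjusted p = 0.217). Which part of the gene was deleted is not given in the sources used here, so the counts are no check of the labels, and libraries are called WT or ISM1-/- below as labelled. WT replicate 1 stood apart with markers of brown fat and heart muscle, and ISM1-/- replicate 3 was the highest of its genotype for adipocyte markers.

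The promoters of the gene whose level differed most, Pnpla3, and of the pathway's central enzyme, Fasn, are shown so that their elements can be set side by side. They are the 250 bases before the transcription start in RefSeq (GRCm38.p6), in the direction of transcription, chr15:84167566-84167815 on the plus strand and chr11:120824548-120824797 on the minus strand. Capitals mark the letters CCAAT (the box of the factor NF-Y) and GGGCGG (the GC box of Sp1), searched on both strands.
Pnpla3: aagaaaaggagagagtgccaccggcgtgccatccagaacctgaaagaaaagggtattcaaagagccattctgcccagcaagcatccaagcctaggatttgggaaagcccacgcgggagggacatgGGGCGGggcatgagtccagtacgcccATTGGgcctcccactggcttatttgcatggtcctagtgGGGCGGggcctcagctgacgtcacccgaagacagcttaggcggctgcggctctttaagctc
Fasn: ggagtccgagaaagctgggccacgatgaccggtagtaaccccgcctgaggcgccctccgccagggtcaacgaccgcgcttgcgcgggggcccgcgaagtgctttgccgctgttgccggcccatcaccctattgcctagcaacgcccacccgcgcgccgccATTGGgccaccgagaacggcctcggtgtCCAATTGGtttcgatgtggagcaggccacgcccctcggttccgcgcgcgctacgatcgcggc

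Counted from the start site, Pnpla3 had 1 CCAAT match, on the minus strand at -99 to -95, between GC boxes at -125 to -120 and -61 to -56. Fasn had CCAAT matches at -90 to -86, -62 to -58 and -59 to -55, of which the last 2 share letters, and no GC box. RefSeq start sites were found for 8 of the 10 genes, Scd1 and Scd2 being unmatched. The window of Acaca lies inside the gene as the annotation draws it. Those of Thrsp and Elovl6, and the outer window of Me1, lie partly inside. Srebf1 and Me1 also had windows at start sites within the gene, which held the GC boxes of Srebf1 and the CCAAT match of Me1. CCAAT was present for 5 of the 8 genes (Pnpla3, Srebf1, Fasn, Me1 and Thrsp) and for 37.5% of the 27025 genes with a promoter. GGGCGG was present for 4 of the 8 (Pnpla3, Srebf1, Acly and Me1) and for 35.4% of all. The sterol regulatory element searched as TCACNCCAC and the E-box CACGTG were found for 0 of the 8, against 1.2% and 6.9% of all genes, which says only that these letters were not in these windows.

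In the libraries labelled ISM1-/-, 9 of the 10 genes had a lower mean than in WT, and Scd2 was level. The differences were of unlike size. Pnpla3 and Thrsp were lower by more than 2-fold, Elovl6 was at 63.6% of its WT mean, and Srebf1, Acly, Acaca, Fasn, Me1 and Scd1 lay between 76.6% and 88.9%. The median of the 10 log2 fold changes was -0.30, and that of all 18689 genes tested was 0.0043, with 48.8% of genes below 0. Fewer cells of a type and less RNA per cell cannot be told apart in whole tissue.

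With edgeR's quasi-likelihood test and an adjusted p under 0.1, 5 of the 10 genes were called lower (Pnpla3, Thrsp, Fasn, Acaca and Me1), where 3.34% of all genes were. Pnpla3 and Thrsp were also 2-fold lower, where 0.284% of all genes were. No gene of the 10 was called higher by edgeR, where 1.38% of all genes were called higher and 0.284% were 2-fold higher. None was called higher by DESeq2 or at an unadjusted p under 0.05, for which the share over all genes is not given here. The libraries of the genotypes did not overlap for 7 of the 10, all lower in ISM1-/-, where 12.3% of all genes were separated in this direction. Because this contrast helped to choose the genes, nothing is read from these counts. The count of 5 fell to 2 without WT replicate 1 (Pnpla3 and Acaca), to 1 without WT replicate 2 (Pnpla3), to 2 without ISM1-/- replicate 1 (Pnpla3 and Fasn) and to 1 without ISM1-/- replicate 2 (Pnpla3).

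**Figure D1:**
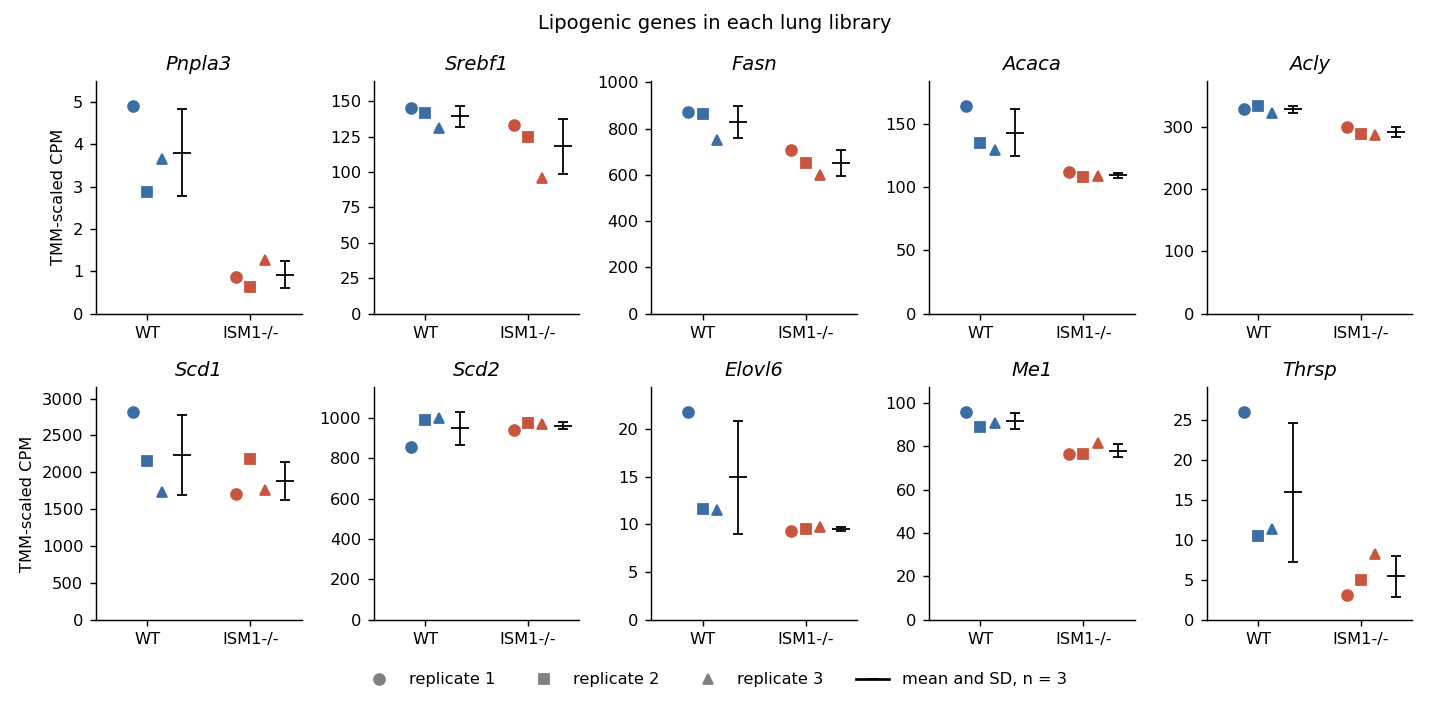
Each panel plots one gene in TMM-scaled CPM (vertical axis, from 0) for the 3 WT (blue) and 3 ISM1-/- (red) libraries, with the marker shape giving the replicate and the bar the mean and SD. Pnpla3 lay at 2.87 to 4.91 in WT and 0.633 to 1.26 in ISM1-/-, WT replicate 1 stood above its genotype for Thrsp, Elovl6 and Scd1, and Scd2 overlapped.

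Pnpla3 (chr15:84167837-84187236, plus strand), which codes for a patatin-like enzyme of lipid droplets, had 185, 119 and 141 counts in WT and 37, 24 and 49 in ISM1-/-. Scaled to depth these were 4.91, 2.87 and 3.65 CPM in WT and 0.870, 0.633 and 1.26 CPM in ISM1-/-. The lowest WT library was more than 2 times the highest ISM1-/- library, so the groups were well apart. The mean was 3.81 ± 1.03 CPM in WT and 0.920 ± 0.315 CPM in ISM1-/-, 24.2% of WT, a log2 fold change of -2.04 (SE 0.281). Each left-out library kept the value between -2.33 and -1.82.

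The patatin-like relatives did not share a change of that size. Pnpla2 (adipose triglyceride lipase), which releases fatty acids from stored fat, was at 135 ± 4.33 CPM in WT and 118 ± 4.28 in ISM1-/-. Its log2 fold change was -0.20 (95% interval -0.32 to -0.07) and missed the threshold by edgeR's quasi-likelihood test (adjusted p = 0.110), while DESeq2 put it past (adjusted p = 0.0670). Pnpla5 was near 1 CPM in both genotypes, with a log2 fold change of -0.15 (95% interval -0.83 to 0.53) that was 0.15 without WT replicate 1. The log2 ratio of Pnpla3 to Pnpla2 within a library was -5.16 ± 0.394 in WT and -6.97 ± 0.501 in ISM1-/-.

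Thrsp (chr7:97412938-97417730, minus strand) had 981, 438 and 438 counts in WT and 132, 189 and 322 in ISM1-/-. These were 26.0, 10.6 and 11.3 CPM in WT and 3.10, 4.98 and 8.25 CPM in ISM1-/-. WT replicate 1 held more than 2 times the level of the other WT libraries, and the libraries of ISM1-/- also ranged widely, yet the groups did not overlap. The mean was 16.0 ± 8.71 CPM in WT and 5.45 ± 2.61 in ISM1-/-, 34.1% of WT, with a log2 fold change of -1.55 (SE 0.393). Without WT replicate 1 it was -1.01 and the call was lost, as it was without WT replicate 2 and without ISM1-/- replicates 1 or 2. Mid1ip1, the Spot 14-related protein that binds acetyl-CoA carboxylase, was more abundant per length (197 against 12.0 FPKM for Thrsp in WT) and close between genotypes, at 197 ± 3.87 CPM in WT and 194 ± 21.0 in ISM1-/- (log2 fold change -0.02, 95% interval -0.19 to 0.15, edgeR's quasi-likelihood test, adjusted p = 0.926).

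**Figure D2:**
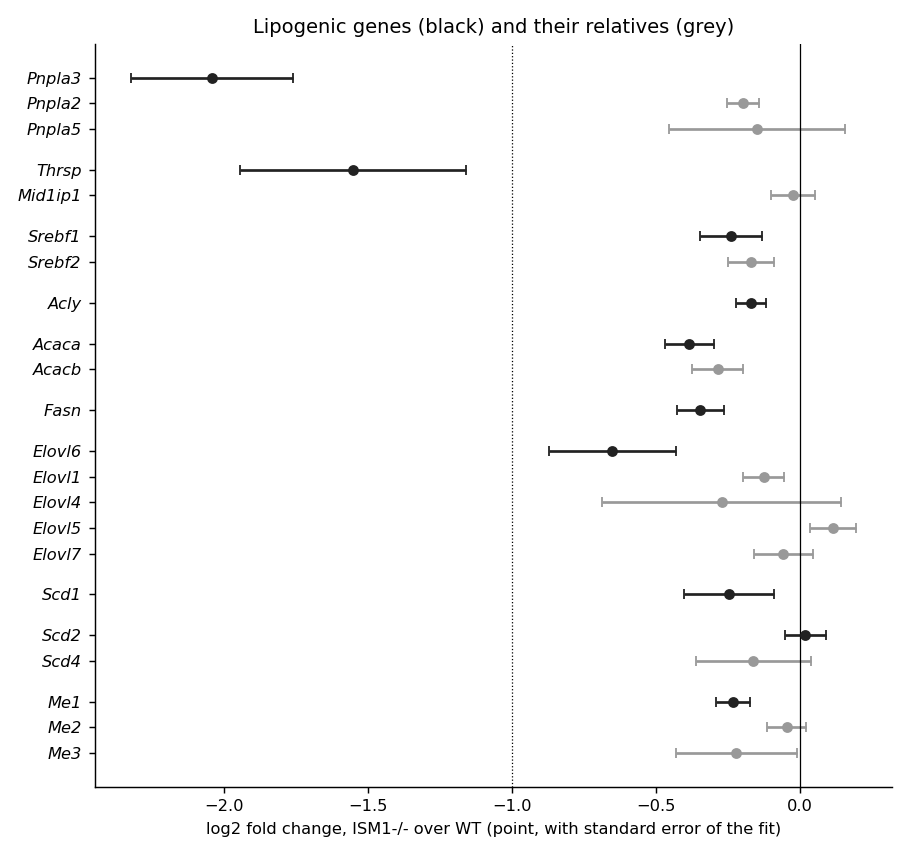
Points give the log2 fold change of ISM1-/- over WT (horizontal axis) with the standard error of the fit, for the 10 lipogenic genes (black) and the relatives of each that could be tested (grey). The dotted line marks a 2-fold fall, which Pnpla3 at -2.04 and Thrsp at -1.55 passed, while the relatives lay between -0.29 and 0.12.

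Srebf1 (chr11:60199089-60222581, minus strand), which codes for both SREBP1 isoforms, was at 145, 142 and 131 CPM in WT and 133, 125 and 96.1 CPM in ISM1-/-. One ISM1-/- library lay among the WT libraries and replicate 3 lay lowest of all. The mean was 139 ± 7.29 CPM in WT and 118 ± 19.5 in ISM1-/-, a log2 fold change of -0.24 (SE 0.107). Its exons share 109 of 5634 bases with Rai1 on the other strand, and the strand setting of the counting is not given in the sources used here. Srebf2, which drives cholesterol synthesis, stood at 231 ± 7.86 and 206 ± 22.7 CPM, a log2 fold change of -0.17 that did not pass edgeR's quasi-likelihood test (95% interval -0.35 to 0.01, adjusted p = 0.345).

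Of the 6 tested genes listed for SREBP processing, 1 fell. Insig1, which keeps SREBPs in the endoplasmic reticulum and is itself an SREBP target, was at 109 ± 5.76 CPM in WT and 85.7 ± 9.21 in ISM1-/- (log2 fold change -0.35, edgeR's quasi-likelihood test, adjusted p = 0.0597). It was called in 1 of 6 fits that left out a library, and not without WT replicate 1 (adjusted p = 0.143). Scap, the escort protein of SREBPs and the list's highest by FPKM, was at 85.2 ± 5.16 and 83.8 ± 6.87 CPM (95% interval of the log2 fold change -0.19 to 0.14, adjusted p = 0.923). Of 12 other lipogenic regulators, 1 fell, Mlxipl (ChREBP), the carbohydrate-responsive activator of the same enzymes. Mlxipl was at 8.64 ± 1.74 CPM in WT and 4.71 ± 0.0792 in ISM1-/- (log2 fold change -0.87, edgeR's quasi-likelihood test, adjusted p = 0.0238), and it passed in all 6 fits that left out a library. Nr1h2 (LXR beta), the most abundant of that list per length, had a log2 fold change of -0.08 (adjusted p = 0.712).

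Acly (chr11:100476353-100528000, minus strand), which supplies acetyl-CoA, was at 329, 333 and 322 CPM in WT and 300, 289 and 286 CPM in ISM1-/-. All ISM1-/- libraries lay below all WT libraries by a small step. The means were 328 ± 5.49 and 292 ± 7.56 CPM, 88.9% of WT, with a log2 fold change of -0.17 (SE 0.0528).

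Acaca (chr11:84129672-84401651, plus strand), the enzyme of malonyl-CoA, was at 164, 135 and 129 CPM in WT and 111, 108 and 109 CPM in ISM1-/-. The groups did not overlap and ISM1-/- libraries lay close together. The means were 143 ± 18.5 and 109 ± 1.94 CPM, with a log2 fold change of -0.39 (SE 0.0850), and -0.27 without WT replicate 1. The mitochondrial relative Acacb was at 40.3 ± 4.79 and 33.0 ± 1.57 CPM (log2 fold change -0.29, edgeR's quasi-likelihood test, adjusted p = 0.140), past the threshold with DESeq2 (adjusted p = 0.0800).

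Fasn (chr11:120805846-120824547, minus strand) was at 872, 865 and 749 CPM in WT and 708, 650 and 598 CPM in ISM1-/-. The lowest WT library lay just above the highest ISM1-/- library. The means were 829 ± 69.2 and 652 ± 55.1 CPM, 78.7% of WT, with a log2 fold change of -0.35 (SE 0.0821). The call was lost without WT replicate 1, WT replicate 2 or ISM1-/- replicate 2, the value staying between -0.41 and -0.29.

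Me1 (chr9:86581371-86695953, minus strand), the cytosolic malic enzyme, was at 95.8, 88.9 and 90.7 CPM in WT and 76.5, 76.2 and 81.5 CPM in ISM1-/-. The means were 91.8 ± 3.58 and 78.1 ± 2.96 CPM, a log2 fold change of -0.23 (SE 0.0593), called in 1 of 6 fits that left out a library. The mitochondrial forms showed no called difference by edgeR's quasi-likelihood test, Me2 at -0.05 (95% interval -0.20 to 0.10, adjusted p = 0.807) and Me3 at -0.22 (95% interval -0.69 to 0.25, adjusted p = 0.684), which was 0.04 without WT replicate 1. Of 13 other genes that supply acetyl-CoA or NADPH, all 13 had a negative log2 fold change and 2 fell, the acetyl-CoA synthetases Acss2 (-0.34, adjusted p = 0.0484) and Acss1 (-0.29, adjusted p = 0.0383). Acss2 was called in 1 of 6 fits that left out a library, and not without WT replicate 1 (adjusted p = 0.120), and Acss1 in 2 of 6.

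Elovl6 (chr3:129532355-129638495, plus strand), the elongase of palmitate, was at 21.8, 11.6 and 11.5 CPM in WT and 9.27, 9.51 and 9.71 CPM in ISM1-/-. WT replicate 1 held nearly 2 times the level of the other WT libraries, and the other WT libraries lay slightly above the ISM1-/- ones. The means were 14.9 ± 5.92 and 9.50 ± 0.224 CPM, a log2 fold change of -0.65 (SE 0.220) that was -0.28 without WT replicate 1. Of the other elongases, Elovl1, Elovl4, Elovl5 and Elovl7 had log2 fold changes of -0.13, -0.27, 0.12 and -0.06, and none was called by edgeR's quasi-likelihood test (adjusted p from 0.433 for Elovl1 to 0.851 for Elovl7).

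Scd1 (chr19:44394451-44407709, minus strand), the desaturase of adipose tissue and liver, was at 2816, 2147 and 1734 CPM in WT and 1709, 2176 and 1758 CPM in ISM1-/-. The groups overlapped, and WT replicates 2 and 3 both lay within the range of the ISM1-/- libraries. The means were 2232 ± 546 and 1881 ± 256 CPM, a log2 fold change of -0.25 (SE 0.157) that was -0.04 without WT replicate 1.

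Scd2 (chr19:44293676-44306864, plus strand), the neighbouring desaturase on the same chromosome, was at 855, 987 and 1001 CPM in WT and 941, 973 and 968 CPM in ISM1-/-. The lowest value was that of WT replicate 1, the library highest for Scd1, and the groups overlapped. The means were 948 ± 80.6 and 961 ± 17.2 CPM, 101% of WT, with a log2 fold change of 0.02 (SE 0.0702). The log2 ratio of Scd1 to Scd2 CPM was 1.21 ± 0.470 in WT and 0.961 ± 0.173 in ISM1-/-. Scd1 shares 2.97% of its 50-base words with Scd2 and 3.42% with the relative Scd3. The sequenced reads were longer than these words, and whether any read could be assigned to either gene was not tested. The third tested desaturase of the family, Scd4, was at 2.99 ± 0.635 CPM in WT and 2.67 ± 0.379 in ISM1-/- (log2 fold change -0.16, 95% interval -0.61 to 0.28, edgeR's quasi-likelihood test, adjusted p = 0.768). The 9 further elongation and desaturation genes included 1 that fell, the desaturase-family member Fads6, at 8.39 ± 0.185 CPM in WT and 5.48 ± 0.206 in ISM1-/- (log2 fold change -0.61, edgeR's quasi-likelihood test, adjusted p = 0.0204). Tecr, the enoyl reductase of elongation, was at -0.14 (adjusted p = 0.457).

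Between genes, levels can be compared only per length, here as the deposited FPKM. In WT the order was Scd1 (462 ± 113), Fasn (232 ± 19.2), Scd2 (174 ± 14.7), Acly (138 ± 2.14), Srebf1 (95.3 ± 4.94), Me1 (46.6 ± 1.87), Acaca (42.0 ± 5.47), Thrsp (12.0 ± 6.54), Elovl6 (6.24 ± 2.47) and Pnpla3 (4.72 ± 1.28). Pnpla3 and Thrsp, the genes with the largest fold changes, were thus among the lowest 3. Neighbours in this order whose WT libraries overlapped were Me1 with Acaca, Thrsp with Elovl6, and Elovl6 with Pnpla3. The order of means was the same in ISM1-/-, where Fasn with Scd2, and Thrsp with Elovl6, overlapped. The order depends on the gene length used. With CPM per deposited gene length in WT, Scd2 (174 per kb) lay above Fasn (75.7), and Pnpla3 (2.46) above Elovl6 (2.32). Summed over the 10 genes, WT libraries held 4185 to 5330 CPM and ISM1-/- libraries 3917 to 4411 CPM.

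The genes also varied within a genotype. Measured as log2 CPM minus the mean of the same genotype, WT replicate 1 was high for Thrsp (0.83), Elovl6 (0.61), Pnpla3 (0.40) and Scd1 (0.36) and low for Scd2 (-0.14). It was the highest WT library for 8 of the 10 genes, against 36.8% of all genes. The same library was high for the mean of brown adipocyte markers (1.02) and cardiomyocyte markers (1.01), with 0.14 for adipocyte markers and -0.01 for alveolar type 2 markers. In ISM1-/-, replicate 3 was high for Thrsp (0.71) and Pnpla3 (0.48), together with adipocyte (0.60) and cardiomyocyte markers (0.54), while Srebf1 (-0.28) and Fasn (-0.12) were low there. Acly and Me1 stayed within 0.07 of their genotype mean in all 6 libraries. The part of these markers in the levels of the lipogenic genes was not tested.

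**Figure D3:**
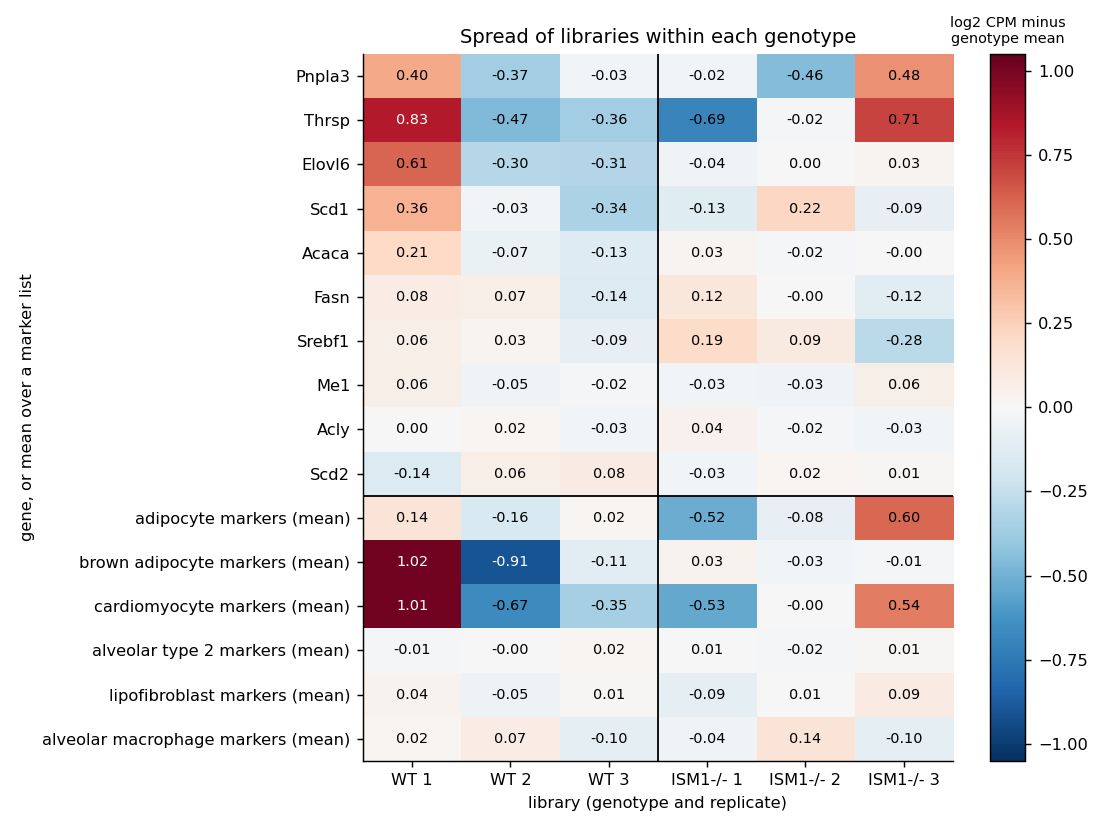
Rows are the 10 genes and the mean over tested markers of 6 cell types, columns the 6 libraries, and colour and number give log2 CPM minus the mean of the same genotype. WT replicate 1 is high for Thrsp (0.83) and Elovl6 (0.61) as for brown adipocyte (1.02) and cardiomyocyte markers (1.01), and alveolar type 2 markers stay within 0.02.

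For the 2 genes called with a 2-fold change, the 5 most similar genes were sought among 15875, by the root mean square difference of centred log2 CPM over the 6 libraries, a description with no test. For Pnpla3 they were Plin1 (0.21), the coat protein of fat droplets, Adipoq (0.26), adiponectin, A530016L24Rik (0.27), Tmem45b (0.29) and Fabp4 (0.37), a fatty acid binding protein of adipocytes. For Thrsp they were Klhl41 (0.17), a gene of striated muscle, Paqr9 (0.17), Kcnj5 (0.18), Sbk3 (0.19) and Retn (0.19), resistin of adipocytes. The genes nearest to Pnpla3 thus included adipocyte genes, and those nearest to Thrsp included a gene of striated muscle and an adipocyte gene. The other genes named were not assigned to a cell type here, so neither set is read as the profile of 1 tissue. Since all the similar genes were lower in the libraries labelled ISM1-/-, the genotype difference is part of each likeness.

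Around fatty acid synthesis, 98 genes in 8 lists, the relatives included, were followed, of which 92 passed the filter and 11 fell by edgeR's quasi-likelihood test, none by 2-fold, against 3.34% of all genes. No gene of the 92 rose by edgeR, where 1.38% of all genes were called higher, so nothing is read from this count. None rose by DESeq2 or at an unadjusted p under 0.05, for which the share over all genes is not given here. The median log2 fold change of the 92 was -0.14. The 11 were 17 by DESeq2, 1 without WT replicate 2, 2 without WT replicate 3, 4 without ISM1-/- replicate 1, 2 without ISM1-/- replicate 2 and 19 without ISM1-/- replicate 3. The relatives were not among the 11, with 0 of 12 called by edgeR, 2 by DESeq2 (Pnpla2 and Acacb) and 2 at an unadjusted p under 0.05.

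Cholesterol synthesis, the pathway of the sister factor SREBP2, accounted for 5 of the 11. Of 22 genes, 21 had a negative log2 fold change, the median was -0.27 and 5 fell. Sqle, squalene epoxidase, went from 54.4 ± 5.25 CPM to 40.4 ± 2.61 (log2 fold change -0.43, edgeR's quasi-likelihood test, adjusted p = 0.0340). Hsd17b7 and Lss, enzymes of the sterol steps, fell by 0.39 and 0.29 on the log2 scale (adjusted p = 0.0677 and 0.0899). Each of Sqle, Hsd17b7 and Lss was called in 2 of 6 fits that left out a library, the fit without WT replicate 1 among them. Hmgcs1, which makes HMG-CoA and was the list's most abundant gene per length, did not pass (-0.24, adjusted p = 0.257).

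Of 8 tested genes of triglyceride synthesis, 1 fell, Acsl1, which activates long-chain fatty acids, from 82.1 ± 4.49 to 64.9 ± 7.59 CPM (log2 fold change -0.34, edgeR's quasi-likelihood test, adjusted p = 0.0784). It was called in 1 of 6 fits that left out a library, and not without WT replicate 1 (adjusted p = 0.176). Lpin2, a phosphatidate phosphatase and the most abundant of the list per length, was at 0.26 (adjusted p = 0.369). Of 10 genes listed for surfactant phospholipid, 0 were called by edgeR's quasi-likelihood test or by DESeq2, with 1 at an unadjusted p under 0.05. Among them, Abca3, the lamellar body transporter, had a log2 fold change of -0.13 (95% interval -0.26 to 0.0035, adjusted p = 0.330), and Prdx6 one of 0.08 (adjusted p = 0.844).

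The same enzymes work in several cell types, so marker genes were set beside them. Of 12 adipocyte markers, 11 fell by edgeR's quasi-likelihood test, where 3.34% of all genes did, with Lipe, hormone-sensitive lipase, not called. By 2-fold or more, 10 fell, where 0.284% of all genes did. DESeq2 called 10 lower, 9 of them by 2-fold. The summed level of the 12 markers was 235 to 284 CPM in WT and 97.4 to 167 CPM in ISM1-/-. Adipoq had 559, 433 and 462 counts in WT and 111, 82 and 254 in ISM1-/- (log2 fold change -1.72, adjusted p = 0.0343), and Plin1 was at -1.88 (adjusted p = 0.0163). Without WT replicate 1, 9 of the 12 fell and the median moved from -1.48 to -1.30. The list was drawn up with results of these libraries known, so its count is not independent evidence, and the part of adipocyte RNA in the lipogenic genes was not tested.

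Markers of alveolar type 2 cells showed smaller differences, none of them called. By edgeR's quasi-likelihood test 0 of 10 were called, as by DESeq2, with 1 at an unadjusted p under 0.05 and a median log2 fold change of -0.05. The summed level was 24958 to 25441 CPM in WT and 23854 to 24885 CPM in ISM1-/-, without overlap. Of the 10, 8 had a negative log2 fold change. The genotypes did not overlap for 4, all lower in ISM1-/-, where 12.3% of all genes were separated in this direction. Sftpc, surfactant protein C, was at -0.01 (95% interval -0.15 to 0.13, adjusted p = 0.962). Lipofibroblast markers (0 of 6 called, 748 to 842 against 719 to 854 CPM) and alveolar macrophage markers (0 of 6, 480 to 553 against 422 to 506 CPM) overlapped between genotypes, with 1 of each at an unadjusted p under 0.05 and none by DESeq2.

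Markers of heart and brown fat were highest in WT replicate 1. All 9 cardiomyocyte markers had a negative log2 fold change all 9 were at an unadjusted p under 0.05, and 1, Myl7, was called by edgeR's quasi-likelihood test and 0 by DESeq2. Their summed level was 545 to 1657 CPM in WT and 298 to 577 CPM in ISM1-/-, and their median log2 fold change of -1.03 was -0.48 without WT replicate 1. Brown adipocyte markers summed to 10.5 to 24.8 CPM in WT and 7.51 to 8.66 CPM in ISM1-/-, with 2 of 5 called (Cox8b and Ppara). Without WT replicate 1 none of either list was called. Liver markers were near absent, with Fgb and Ttr at 0 in all 6 libraries and a list sum of 0.923 to 1.60 CPM, and the 1 testable marker, Alb, was not called. The part of heart and brown fat RNA in the higher Thrsp, Elovl6 and Scd1 levels of WT replicate 1 was not tested.

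**Figure D4:**
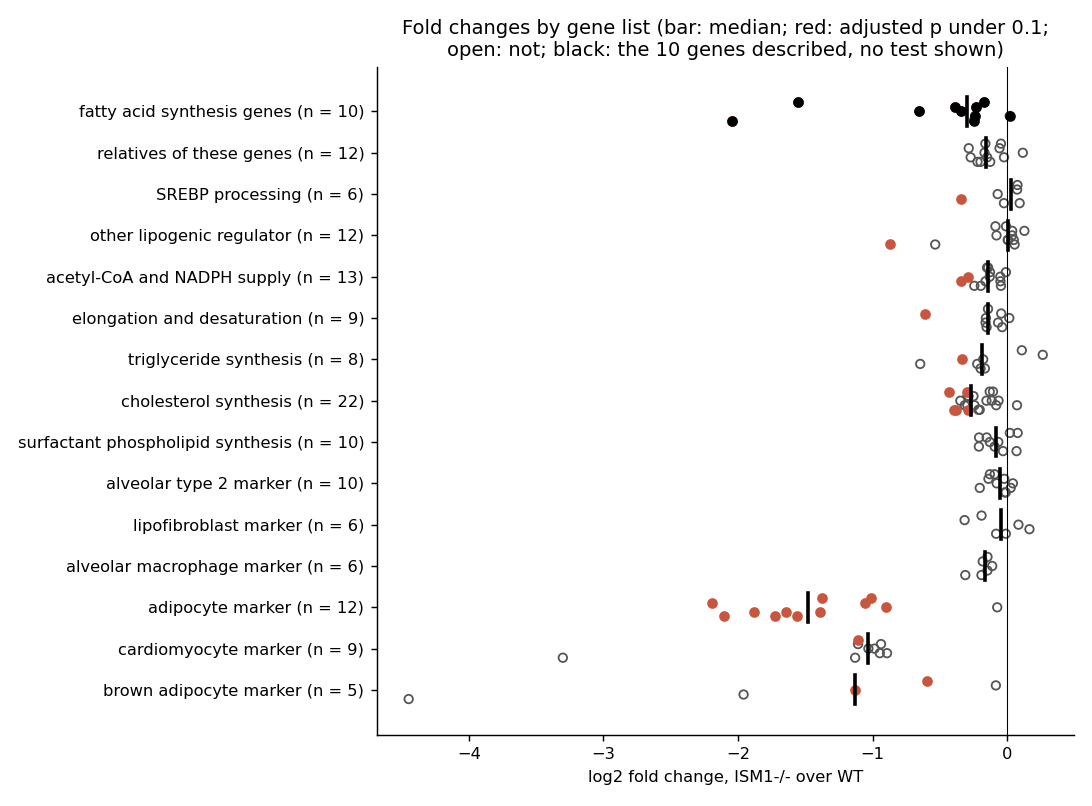
Each point is a gene, its horizontal position the log2 fold change of ISM1-/- over WT, and each row a list with the number of genes tested and a bar at the median. Red points passed an adjusted p of 0.1, open points did not, and the 10 lipogenic genes (black, no test shown) have a median of -0.30, against -1.48 for adipocyte and -0.05 for alveolar type 2 markers.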

How the data were processed

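The authors prepared directional poly-A libraries from perfused whole lung, sequenced read pairs, removed adaptors and low-quality reads, and mapped them with STAR to GRCm38. The counting program, annotation release and strand setting are not given in the sources used here. The authors deposited raw read counts per gene and, separately, FPKM values, which are those counts scaled to the library total and to one length per gene. A minimum of 0.5 CPM in 1 or more libraries kept 18689 of 54532 genes, which were scaled by TMM and fitted with edgeR 4.0.16 in R 4.3.3 (glmQLFit, glmQLFTest, 3 against 3), with Benjamini-Hochberg adjustment over all of them. A gene was called at an adjusted p under 0.1, with or without a 2-fold change. The code was tested on simulated data.

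The 10 genes and all gene lists were chosen with earlier results of these data known, from textbook pathways. Named genes were the 10, Ism1, their tested relatives, in each pathway list the called genes (at most 5) and the most abundant gene per length, 4 markers, markers at 0 and the 5 genes most like each 2-fold gene. Some genes that this rule names are not reported here. Other genes named are marked or are markers. Some lists share genes, Abca3 and Lpcat1 being in both the surfactant and the alveolar type 2 list.

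Replicate pairs of one genotype differed by more than sampling noise (chi-square per degree of freedom 5.10 to 19.3). Log2 CPM used a prior count of 2. Promoters came from RefSeq (GRCm38.p6), 250 bases upstream. Protein sequences were planned and are not used here. Alternatives were DESeq2 1.42.0, other scalings and filters, an adjusted p of 0.05, a replicate block and leaving out each library. Pnpla3 libraries hold 24 to 185 counts.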

Additional observations from a re-analysis of the deposited data

How the results depend on the processing

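Among the lipogenic genes, their relatives and the named pathway genes that were called, no called gene changed direction, while Scd2, Elovl4, Elovl7, Me3, Mid1ip1 and Pnpla5, none of them called, did when 1 library was left out. Scd2 lay between -0.05 and 0.06 on the log2 scale when each library was left out. Of the 10 lipogenic genes, 5 were called lower in the reported fit. An adjusted p of 0.05 left 2 (of which 1 was 2-fold), and leaving out each library in turn left 1 to 5 (1 to 2 of them 2-fold). DESeq2 called 7, adding Acly and Elovl6. Of the 92 other pathway genes, 11 were called lower, 17 with DESeq2, 21 with no filter on low counts, 6 at an adjusted p of 0.05 and 1 to 19 when each library was left out. Over all genes, 882 were called, 1632 with no filter, 455 at an adjusted p of 0.05 and 150 to 1470 when each library was left out. The 2-fold calls were 106, with 37 for genes above a mean of 2 CPM, 293 with no filter, 51 at an adjusted p of 0.05 and 31 to 188 when each library was left out. With CPM per deposited gene length in place of FPKM, 6 of the 10 genes kept their rank. Deviations of same-numbered libraries from their genotype means had r of -0.0334, 0.0348 and 0.0367 across genes, so the numbers were not taken to pair mice. With a replicate block, 5 of the 10 genes (2 of them 2-fold), 14 pathway genes, 1105 genes in all and 130 with 2-fold were called. DESeq2 gave no adjusted p for 1456 genes, which are left out of its counts. The median log2 fold change of all genes moved only between -0.010 and 0.0092 across the settings. What depth limits was not tested.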
